A study of Mus musculus with 2 samples.

Results

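Genes that carry out iron uptake, storage and export were followed in mouse intestinal subepithelial myofibroblasts, the contractile stromal cells under the gut lining, on a pair of microarrays. The group was chosen by name: Cp, Tfrc, Slc40a1, Slc11a2, Fth1, Ftl1, Hmox1, Ireb2, Aco1 and Steap3, 10 genes in all, of which 9 had a probeset of their own among 22180 named genes. Ftl1, the ferritin light chain gene, was paired only with 6 probesets that it shares with other annotated genes. It therefore has no value here and takes no part in the counts. The stimulated array holds RNA of myofibroblasts kept for 1 day with homogenised intestinal eosinophils at 5 mg/ml, and the non-stimulated array holds RNA of myofibroblasts kept without homogenate. Both conditions used cells from the small bowel of wild-type BALB/c mice, with no genetic change named in the labels. Each array carries pooled RNA of 3 cultures, so each condition has 1 array, there is no replicate error, and every difference below describes these pools without a test. The number of arrays limits the precision.

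Cells take up iron mainly as transferrin bound to the transferrin receptor, reduce it in the endosome, and pass it to the cytosol through a divalent metal transporter. Iron that is not used is stored in ferritin, a shell of heavy and light chains, or leaves through ferroportin, after which a ferroxidase such as ceruloplasmin oxidises it so that transferrin can bind it. The iron-regulatory proteins, encoded by Aco1 and Ireb2, bind hairpins in messenger RNAs when iron is scarce: in the 3′ untranslated region of Tfrc and of some Slc11a2 isoforms this stabilises the message, and in the 5′ untranslated region of Fth1, Ftl1 and Slc40a1 it blocks translation, a step that an RNA array does not read.

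The values are log2 RMA values, in which a difference of 1 is 2-fold, and differences are stimulated minus non-stimulated. Genes that passed a background level on at least 1 array were compared. This level was the 95th percentile of 1407 odorant and vomeronasal receptor probesets and lay at 5.57 on the stimulated and 5.58 on the non-stimulated array. Of the named genes, 14068 passed it. All 9 iron-handling genes with a value were above background on both arrays, by at least 1.51, so none of their differences is a bound. All 10 fibroblast and myofibroblast markers were above background on both arrays, but so were 13190 of the 22180 named genes. The levels of these markers say more about the tissue label. They ran from 7.23 (Des) to 13.16 (Vim) on the stimulated array and from 7.85 (Des) to 13.10 (Vim) on the non-stimulated array. The median of all probesets was 5.77 and 5.76 on these arrays. Among these markers, Des, Tagln and Acta2 differed by -0.62, -0.41 and -0.28, Pdgfra by 0.56, and the others by less. One label field names eosinophils as the source of both samples, but of 8 eosinophil markers with a probeset, 1 was above background on the stimulated and 2 on the non-stimulated array, and the granule genes Epx, Prg2 and Prg3 were under it on both.

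With homogenate, 4 iron-handling genes were higher by at least 0.5, and the other 5 differed by less than 0.25 in either direction. Of the 9 genes, 7 were higher and 2 lower on the stimulated array, where 50.2% of all genes above background were higher and 48.2% lower. Only Cp measured at least 2-fold higher, where 0.192% of all genes did, and 0 of the 9 measured at least 2-fold lower, where 0.0426% of all genes did. Cp, Hmox1, Slc11a2 and Tfrc, 4 genes, were higher by at least 0.5, which is 44.4% of the 9 against 1.2% of all genes, and none was lower by as much, against 1.15%. The same 4 of 9 passed 0.25, which 6.69% of all genes passed upwards and 7.64% downwards. The median difference of the 9 was 0.24, from -0.03 to 1.93, and the median of all genes above background was 0.00. The genes were picked with earlier results of these arrays in view, so their share above a threshold is not independent evidence.

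**Figure D1:**
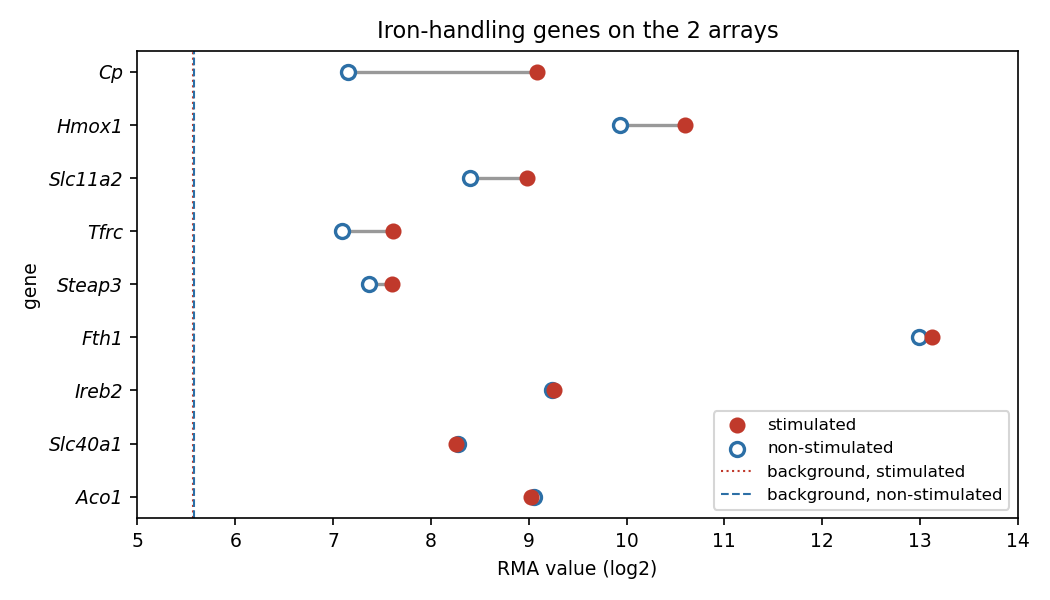
RMA values (log2, x axis) of the 9 iron-handling genes on the stimulated array (filled) and the non-stimulated array (open), ordered by their difference, 1 array per condition. The gap is widest for Cp (9.09 and 7.16) and the symbols nearly coincide for Ireb2, Slc40a1 and Aco1; vertical lines mark the background level of each array.

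Cp encodes ceruloplasmin, the copper-carrying ferroxidase that oxidises iron leaving the cell. It read 9.09 on the stimulated array and 7.16 on the non-stimulated array, a difference of 1.93 or 3.82-fold. The stimulated culture pool was thus well above the other in this gene, and both values stood clear of background. Among all genes above background Cp held rank 8 by difference, and the genes compared were also split by mean level into 4 equal brightness sets. In the set of 3517 genes that holds Cp, 0.142% differed by at least as much in either direction. Among 12124 genes above background on both arrays, leaving out predicted, small RNA and receptor symbols, the next higher differences were those of U90926 (2.05), Mmp9 (2.10) and Mmp3 (2.27), and the next lower those of Ccl11 (1.87), Mmp13 (1.71) and Ccl2 (1.56). U90926 is a long non-coding RNA gene, the Mmp genes encode matrix metalloproteinases and the Ccl genes chemokines. With 2 arrays this likeness rests on a single difference per gene.

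The promoter sequence of Cp is given because this gene differed most. The RefSeq table of GRCm38.p6 has 2 starts for Cp, and the 250 bases before the upstream one, on the plus strand at chr3:19956804-19957053, read as follows and hold no match to the hypoxia, NF-kB and antioxidant response motifs.
Cp: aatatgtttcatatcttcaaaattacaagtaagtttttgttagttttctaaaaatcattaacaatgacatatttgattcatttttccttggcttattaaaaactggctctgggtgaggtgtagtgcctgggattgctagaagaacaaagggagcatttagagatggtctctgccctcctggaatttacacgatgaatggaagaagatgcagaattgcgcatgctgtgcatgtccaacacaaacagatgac
Heph, which encodes hephaestin, the membrane-bound ferroxidase related to ceruloplasmin, read 5.79 and 5.81 on the stimulated and the non-stimulated array, close to background, a difference of -0.01. Hephl1, its homologue, was under background on both arrays.

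Of the genes for iron entry, Tfrc and Slc11a2 were both higher with homogenate. Tfrc, the transferrin receptor, read 7.61 on the stimulated and 7.09 on the non-stimulated array, a difference of 0.53 or 1.44-fold. Slc11a2, the divalent metal transporter that carries iron out of the endosome, read 8.98 and 8.40 on the same arrays, a difference of 0.58 or 1.50-fold. In their brightness sets, 1.48% of genes differed at least as much as Tfrc and 0.881% at least as much as Slc11a2. The array gives 1 value per gene here, so isoforms of Slc11a2 with and without the iron-responsive hairpin cannot be told apart.

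Steap3 encodes the reductase that turns endosomal ferric iron into the ferrous form. It read 7.60 with and 7.37 without homogenate, a difference of 0.24 or 1.18-fold. That size is common among genes of like brightness: 9.04% of them differed by at least as much.

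A search of the promoter windows found few matches. Windows reach from 250 bases before to 50 after a start, and the table held 13 for 7 of the 10 genes: 4 for Steap3, 2 each for Cp, Tfrc and Fth1, and 1 each for Aco1, Ireb2 and Ftl1. Hmox1, Slc11a2 and Slc40a1 had no window, so the search says nothing about them. The hypoxia response core ACGTG, searched on both strands, is in both windows of Tfrc, which overlap and hold the same copy, and in 19.6% of all 32851 windows. The NF-kB motif is in 1 window of Steap3 and in that of Ftl1, and in 8.46% of all windows; both copies match on both strands at the same place. The antioxidant response core TGACNNNGC is in none of the 13 and in 12.4% of all windows. The iron-responsive element loop CAGTGN, taken only where the bulged C of the hairpin stands 5 bases before it and searched on the sense strand of the 50 bases after a start, is in none of the 13 and in 1.55% of all. Hairpins in a 3′ untranslated region, or farther than 50 bases after a start, lie outside this search. The lack of a match therefore does not show that a gene has no such hairpin. A match is a run of letters and not a site shown to be used. Stretches of 30 bases around the matches are given on each gene's own strand, at chr16:32608882-32608911 (plus) for Tfrc, chr1:120270427-120270456 (minus) for Steap3 and chr7:45459882-45459911 (minus) for Ftl1, with the motif in capitals.
Tfrc: ctcggtaggtgtACGTGcggaaggaagtga
Steap3: ggttgggcagGGGGAATCCCaaccttcaca
Ftl1: tctcgggcctGGGGCACCCCtccctccgga

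Of the storage and export genes, Fth1 and Slc40a1 differed little, unlike Cp, and Ftl1 had no value. Fth1, the ferritin heavy chain with its ferroxidase centre, read 13.12 on the stimulated and 12.99 on the non-stimulated array, a difference of 0.13 or 1.10-fold, and 21.7% of genes in its set differed by at least as much. Slc40a1, which encodes ferroportin, the cell's iron exporter, read 8.26 and 8.27 on these arrays, a difference of -0.02. In its set 87.1% of genes differed by more or by as much, so the ferroportin message read nearly alike in the pools.

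Hmox1 encodes the inducible haem oxygenase, which breaks haem down and frees its iron. It read 10.59 with homogenate and 9.93 without, a difference of 0.66 or 1.58-fold. Next to Cp it had the largest difference of the group, and 0.626% of genes in its set differed by at least as much. Hmox2, the constitutive form, read 8.89 and 8.83 on the stimulated and the non-stimulated array, a difference of 0.06.

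The messages of both iron-regulatory proteins read nearly alike on the arrays. Ireb2 read 9.26 and 9.23 on the stimulated and the non-stimulated array, a difference of 0.03, and Aco1 read 9.03 and 9.05, a difference of -0.03. Of the genes in their set, 79.4% differed by at least as much as Ireb2 and 81.7% by at least as much as Aco1. Both proteins are set largely after transcription, Aco1 by its iron-sulphur cluster and Ireb2 by degradation, which the array does not measure.

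**Figure D2:**
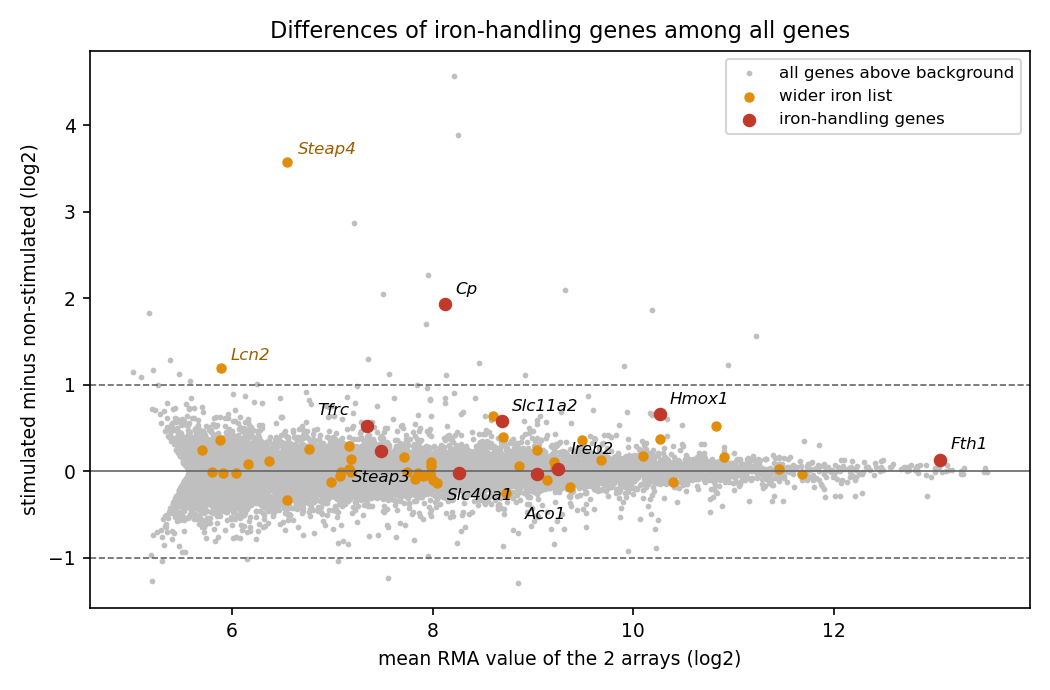
Difference (stimulated minus non-stimulated, log2) against the mean RMA value of the 2 arrays (log2) for all 14068 genes above background (grey), the wider iron list (orange) and the 9 iron-handling genes (red); dashed lines mark 2-fold. Of the red points only Cp, at 1.93, lies beyond a dashed line, and Hmox1, Slc11a2 and Tfrc sit at the upper edge of the grey cloud.

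Over the brightness sets, the central 95% of differences narrowed with brightness. It ran from -0.39 to 0.36 in the set of Tfrc, from -0.29 to 0.32 in that of Cp, Steap3 and Slc40a1, and from -0.25 to 0.29 in that of Hmox1, Slc11a2, Fth1, Ireb2 and Aco1. Cp, Hmox1, Slc11a2 and Tfrc lay above these ranges and the other 5 genes inside them. This spread is that between genes in 1 pair of arrays, not an error of replicates.

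A wider list of 63 other genes of iron and haem handling was laid beside the group. Of these, 57 had a probeset of their own and 48 were above background. The list was split almost evenly, with 26 higher and 22 lower on the stimulated array and a median of 0.04. By at least 0.25, 10 of 48 (20.8%) were higher, against 6.69% of all genes, and 1 (2.08%) was lower, against 7.64%. By at least 0.5, 4 of 48 (8.33%) were higher, against 1.2% of all genes, and 0 lower, against 1.15%. These 4 were Steap4, Lcn2, Fbxl5 and Hif1a, of which Steap4 and Lcn2 passed background only through the stimulated array.

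Among the metalloreductases and the alternative entry routes, Steap4 and Lcn2 differed most, and both passed background only on the stimulated array, so their direction was set by that filter. Steap4 read 8.34 with homogenate and 4.76 without, while Steap2 differed by 0.37 and Steap1 by 0.24, a size that 6.34% of genes in the brightness set of Steap1 reached. For Steap4 the level without homogenate leaves at least 6.78-fold. Cybrd1, the duodenal ferric reductase and the remaining metalloreductase measured, was under background on both arrays, at 4.72 and 5.02. Of the 6 carriers and other entry routes measured, 3 were above background on at least 1 array. Lcn2, whose product binds iron-laden siderophores, read 6.48 and 5.29 on the stimulated and the non-stimulated array and was under background on the non-stimulated array, which leaves at least 1.87-fold. Slc39a14 and Slc39a8, zinc transporters that also carry iron, differed by 0.39 and 0.26, and 14.5% of genes in the set of Slc39a8 differed by at least as much as it did. Ltf (lactoferrin), Scara5 (a ferritin receptor) and Tfr2 were under background on both arrays.

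Genes that tune iron after transcription or supply mitochondria gave single differences. Fbxl5, the iron-sensing part of the ubiquitin ligase that marks the Ireb2 protein for degradation, read 8.93 with homogenate and 8.29 without, a difference of 0.64 or 1.56-fold. Of genes in its set, 0.881% differed by at least as much. The other cytosolic genes differed by less, with Pcbp1, an iron chaperone, at 0.13 and Ncoa4, which takes ferritin to the lysosome, at -0.10. Slc25a37, the mitochondrial iron importer mitoferrin, was higher by 0.36, Ftmt (mitochondrial ferritin) by 0.36 at values near background (6.06 and 5.70), and Iscu, the scaffold for iron-sulphur clusters, differed by -0.25. The 7 mitochondrial genes had a median difference of 0.03, with 4 above and 3 below 0.

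Haem genes other than Hmox1 lay within 0.3 of 0 in difference. Haem import, export and breakdown counted 10 genes, with 6 above and 4 below 0 in difference and a median difference of 0.04. Hpx, the haem scavenger hemopexin, differed by 0.24 (5.82 with and 5.58 without homogenate, the second at background level), Slc48a1, a haem transporter, differed by 0.17, and Blvrb, a biliverdin reductase, by 0.14. The 6 haem synthesis genes had a median difference of 0.03, with 3 on each side of 0. Ppox differed by 0.29, Alas1, which catalyses the first step, by 0.11, and Alad by 0.06.

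Genes of the hepcidin axis and the transferrin cycle differed by little in either direction. Hamp and Hamp2, the hepcidin genes, were under background on both arrays. Of the 4 genes of this axis above background, 1 was higher and 3 lower: Bmp6, the growth factor that induces hepcidin in liver, differed by -0.33, Neo1, a receptor that binds hemojuvelin, by -0.18, and Hfe by 0.08. Of 4 genes of the transferrin cycle, 2 were higher and 2 lower, with Snx3 at -0.13, Exoc6 at -0.12 and Mon1a at 0.17. Of 5 transcription factor genes, Hif1a, the hypoxia-inducible factor, was higher by 0.53 (11.09 with and 10.56 without homogenate) and Nfe2l2, an activator of Hmox1, by 0.18, while Bach1, a repressor of Hmox1, differed by -0.04.

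**Figure D3:**
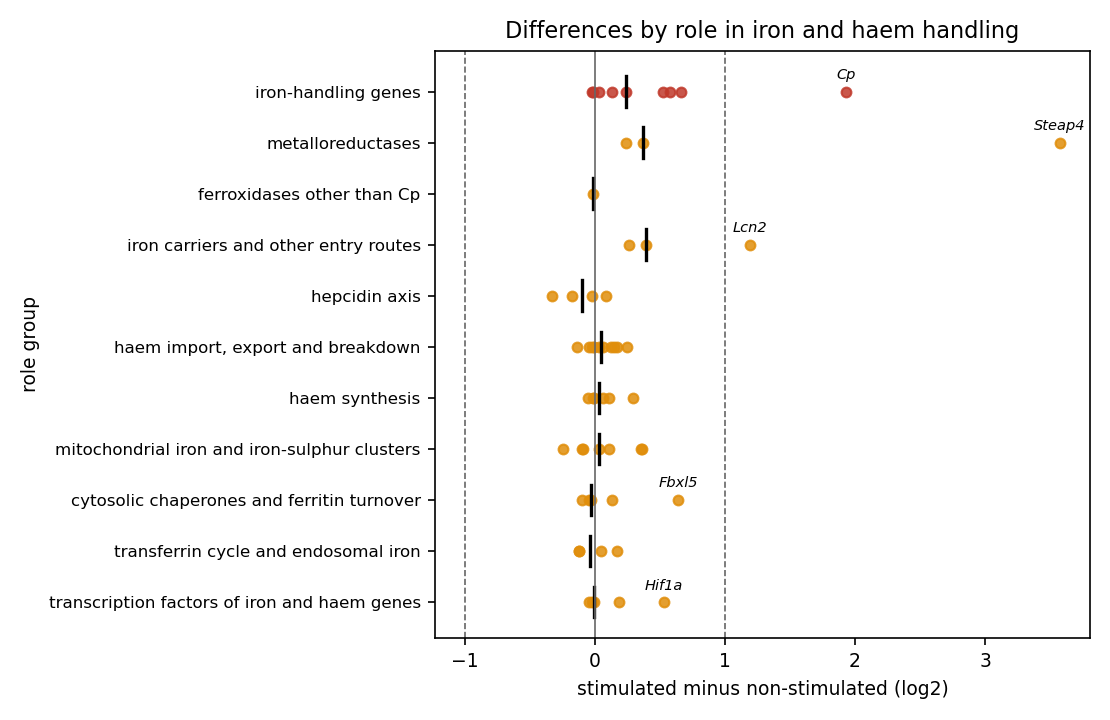
Difference (stimulated minus non-stimulated, log2, x axis) of each gene above background, by role (rows); black bars are row medians and dashed lines mark 2-fold. Steap4 (3.58) and Lcn2 (1.19), both under background without homogenate, lie farthest to the right in the wider list, and most other genes lie near 0.

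Markers of macrophages, erythroid cells and hepatocytes, which handle much iron, were low or under background on both arrays. In bulk RNA a change in the number of cells of a type and a change in RNA per cell cannot be told apart. Of 10 macrophage markers, 4 were above background on the stimulated and 3 on the non-stimulated array. The log2 of their summed linear levels was 8.98 with homogenate and 8.90 without. Cx3cr1 (6.81 with and 6.57 without homogenate), Cd68 (6.52 and 6.31) and Marco (5.71 and 5.93) were above background on both arrays. The others except Lyz2, among them Adgre1, Csf1r and Cd163, were under it on both. Of the macrophage genes, Lyz2 read 5.66 with homogenate and 5.15, under background, without, which leaves at least 1.06-fold. Of 3 erythroid markers with a probeset, 1 was above background on the stimulated and 2 on the non-stimulated array. Of 5 hepatocyte markers, 1 was above it on each, Apoa1 (6.04 with and 5.90 without homogenate), and Alb was under background on both. For other listed cell types, 4 of 8 epithelial, 3 of 6 endothelial and 2 of 8 neutrophil markers were above background on each array. Of all 22180 named genes, 13190 were above it on both. Among the epithelial markers, Krt8 read 6.23 with homogenate and 6.45 without. The part of these low signals in the differences of Cp and Hmox1 was not tested.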

How the data were processed

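RNA was read on GeneChip Mouse Gene 2.0 ST arrays, 1 per condition, each of 3 pooled cultures, per the series design text. The authors deposited log2 values, which were used as they stand; they were made with Affymetrix Expression Console and RMA per the submitters' processing notes; for versions and genome build, they are not given in the sources used. Once sorted, the arrays' values lay within 0.0757 of each other, as quantile normalization leaves them, so an overall shift between arrays would not show. Of 41345 probesets, 23521 were paired with 1 gene by the platform annotation, 1814 with several and 16010 with none; only the first were used, and the brightest by mean of both arrays stood for a gene. Identifiers of 23328 matched RefSeq (GRCm38.p6), the source of current symbols, and the other 193 have the annotation's symbol. Promoters are RefSeq's, GRCm38.p6.

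With 1 array per condition no test was run. Folds are 2 to the power of the log2 difference, and a fold from under background is "at least", against that array's background level. Members and lists were chosen with earlier results of these data known. Named genes were all members, up to 3 genes with the largest absolute difference per role group and any past 0.5, with a few others named after their values were seen (Heph's homologue Hephl1, Cybrd1, Ltf, Scara5, Tfr2, Hamp, Hamp2, Hmox2 and markers). Alternatives were other background levels, probeset means, centring and thresholds. The counting script was tested on simulated data with Python 3.11.15, pandas 2.3.3 and statsmodels 0.14.6. The motif search was tested in the same way for the antioxidant response core only.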

Additional observations from a re-analysis of the deposited data

How the results depend on the processing

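For the 9 iron-handling genes, 54 recomputed differences (6 alternatives each: a background at the 99th percentile, none at all, probeset means, centring on the median or on a lowess trend, and values raised to background, the last added after the data were seen) moved by at most 0.0168, and their median stayed between 0.23 and 0.24. Each of these genes has 1 probeset of its own and lay above background on both arrays. Only the centrings could therefore move a difference, and the other alternatives left it unchanged by construction. The mean in place of the median was 0.45, and without Cp the median of the other 8 was 0.19. At thresholds of 0.5 and 0.25 the count of higher members was 4 each time, against 1 at 2-fold. Over all genes, no background filter gave 43 higher and 29 lower by 2-fold, in place of 27 and 6. The stricter background gave 19 higher and 3 lower, and values raised to background gave 19 higher and 4 lower. At 0.5 the counts were 169 higher and 162 lower, and at 0.25 they were 941 and 1075. The wider list had a median of -0.01 without the background filter, against 0.04 with it. No paired analysis was possible because each condition has 1 array.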

Other observations

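The 6 probesets that Ftl1 shares with other annotated genes cannot be given to one gene. The pair with the highest values read the same on each array, so the 6 are not all separate readings. The log2 differences of the 6 (stimulated minus non-stimulated) ran from 0.02 to 0.16, with values from 7.31 to 12.79 on the stimulated and from 7.26 to 12.77 on the non-stimulated array.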
